A study of Mus musculus with 20 samples.

Results

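Genes of oligodendrocyte precursors were followed in RNA-seq libraries of the mouse frontal cortex. The members were chosen by name: rows of the deposited count table called Pdgfra, Cspg4, Olig1, Olig2, Gpr17, C1ql1, Lhfpl3, Neu4, Bcas1 or Enpp6. Rows were found for 9 of the 10 names, among 25965 rows in all, and Lhfpl3 was not analysed here. All mice were C57BL/6, 5 months old, and differed in the gene of TDP-43, an RNA-binding protein linked to motor neuron disease and frontotemporal dementia. A knock-in places the protein change Q331K in the mouse's own gene, so no transgene promoter is involved. There were 6 wild-type (+/+), 6 heterozygous (Q331K/+) and 8 homozygous (Q331K/Q331K) libraries of polyadenylated RNA. The labels give neither sex nor pooling, and nothing on separate litters, so a p-value here reflects only how these libraries scattered.

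Oligodendrocyte precursors are the dividing glial cells of the adult brain that give rise to the myelin-forming oligodendrocytes. They are recognised by the growth factor receptor Pdgfra and the proteoglycan Cspg4 (NG2), and they depend on the lineage transcription factors Olig1 and Olig2. On the way to myelination a precursor loses Pdgfra and Cspg4, passes through a stage marked by Gpr17, then by Bcas1 and Enpp6, and finally makes myelin proteins. Several members are not private to the lineage: mural cells of vessels also make Cspg4, and fibroblasts of the meninges also make Pdgfra. In RNA from whole tissue, fewer cells of a type and less RNA per cell cannot be told apart.

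The start regions of 3 members are shown because those genes stand for the identity of the precursor: the receptor and the proteoglycan that define it and the transcription factor that specifies it. Each is the 250 bases before the RefSeq start on GRCm38.p6, and all 3 genes lie on the plus strand. Capitals mark CANNTG, the letters bound by basic helix-loop-helix factors such as Olig2, and AACAAT or its other strand ATTGTT, the letters bound by Sox factors.
Pdgfra, chr5:75152001-75152250: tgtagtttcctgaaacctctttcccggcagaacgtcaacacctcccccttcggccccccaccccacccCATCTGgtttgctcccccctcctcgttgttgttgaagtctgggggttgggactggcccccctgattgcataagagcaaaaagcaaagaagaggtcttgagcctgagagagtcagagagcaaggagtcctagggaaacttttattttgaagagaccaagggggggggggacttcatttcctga
Cspg4, chr9:56864854-56865103: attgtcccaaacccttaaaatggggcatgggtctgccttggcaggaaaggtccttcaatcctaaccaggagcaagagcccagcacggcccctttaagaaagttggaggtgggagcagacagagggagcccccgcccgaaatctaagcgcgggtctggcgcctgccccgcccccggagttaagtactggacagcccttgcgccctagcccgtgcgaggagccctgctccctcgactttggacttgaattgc
Olig2, chr16:91225300-91225549: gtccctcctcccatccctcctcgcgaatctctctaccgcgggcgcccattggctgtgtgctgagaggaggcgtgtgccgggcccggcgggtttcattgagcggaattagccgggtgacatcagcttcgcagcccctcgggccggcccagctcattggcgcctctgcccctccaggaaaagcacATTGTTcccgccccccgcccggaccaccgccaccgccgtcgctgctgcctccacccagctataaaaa
The Pdgfra window held 1 CANNTG match and no AACAAT match. The Cspg4 window held neither. The Olig2 window held 1 AACAAT match, on the other strand, and no CANNTG match. Of 32851 windows of the same length, 66.2% held CANNTG and 9.42% held AACAAT on either strand, so a match is common and describes letters only. Windows were at hand for 5 of the 9 members, the other two being Neu4 and Enpp6.

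On GRCm38 the members lay at separate loci except for the neighbours Olig2 (chr16:91225550-91228677, plus strand) and Olig1 (chr16:91269769-91271939, plus strand), with 41091 bases between them. The receptor gene Pdgfra lay at chr5:75152291-75198204 and Cspg4 at chr9:56865104-56899870, both on the plus strand. C1ql1 lay on the minus strand at chr11:102939264-102946688, Neu4 on the plus strand at chr1:94020493-94028326 and Gpr17 on the minus strand of chromosome 18. Bcas1 lay on the minus strand at chr2:170346991-170427845 and Enpp6 on the plus strand at chr8:46986925-47094895. Exonic bases were shared with a gene on the opposite strand by Pdgfra (at most 456 bases with Gm42802), Bcas1 (440 with Bcas1os1), Gpr17 (188 with Lims2) and Olig1 (157 with Gm15966). Which strand setting was used for counting is unknown here, so reads of these stretches may belong to either gene.

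The libraries held 61282647 to 111440766 counts, and all 9 members passed the filter on low counts that 16690 of the 25965 rows passed. No pair of libraries of 1 genotype agreed within sampling noise: over 58 pairs, chi-square divided by its degrees of freedom was at least 12.5. None of 12 cortical neuron markers was at 0 in any library. Marker scores are means of z-scaled log2 CPM (counts scaled to library size) over a list of genes, and a few libraries stood apart in them. Heterozygous replicate 1 had a striatal neuron score of 3.21, homozygous replicates 5 and 8 had olfactory bulb scores of 2.06 and 2.12, and 4 libraries (heterozygous replicate 2 and homozygous replicates 1, 2 and 4) had ependymal scores over 0.5. For the members whose difference of homozygotes from wild type moved by over 1.5 times without the olfactory or the ependymal libraries, that value is given too.

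Levels between genes were compared per kilobase of annotated exon. Bcas1 was the most abundant member, at a mean of 38.0 CPM per kb over the 20 libraries. Olig1 followed at 30.5, then Gpr17 at 9.90, Olig2 at 7.72, Pdgfra at 5.45, C1ql1 at 3.92, Cspg4 at 1.81, Neu4 at 1.56 and Enpp6 at 0.63. The highest of these means was 60.3 times the lowest. The ranges over libraries of Bcas1 and Olig1 overlapped, as did those of Gpr17 and Olig2, of Pdgfra and C1ql1 and of Cspg4 and Neu4. Within single libraries the order of Bcas1 over Olig1 held in 20 of 20, of Gpr17 over Olig2 in 19, of Pdgfra over C1ql1 in 18 and of Cspg4 over Neu4 in 18. The other neighbours in the order had ranges that did not overlap. Exon length came from an annotation that may differ from the one used for counting.

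**Figure D1:**
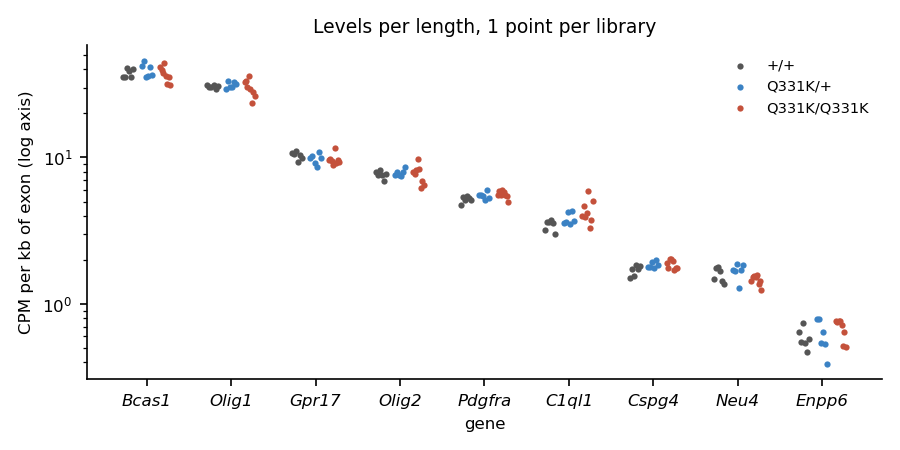
Level of 9 precursor genes per kilobase of exon (CPM per kb, log axis), 1 point per library, coloured by genotype. Bcas1 and Olig1, at means of 38.0 and 30.5, stand above the other 7, and Enpp6 is lowest at 0.63.

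The receptor and surface genes of the precursor came first. Pdgfra, whose ligand drives precursors to divide, ran from 47.2 to 54.4 CPM in wild type (median 52.5), from 51.1 to 60.5 in heterozygotes (median 55.4) and from 49.8 to 60.0 in homozygotes (median 55.7). Homozygotes lay above every wild-type library in 6 of 8 cases, and the groups overlapped through homozygous replicates 7 and 8. The difference of homozygotes from wild type was 0.11 on the log2 scale (SE 0.042, 95% interval 0.02 to 0.19), with adjusted p = 0.197 by edgeR's quasi-likelihood test over all genes. Its exact permutation p was 0.0303 two-sided, and 0.281 after adjustment over the 27 member tests (9 genes, 3 pairs of genotypes). With meningeal and ependymal scores as covariates the difference was 0.04 (adjusted p = 0.78, edgeR), and without the 4 libraries of ependymal score over 0.5 it was 0.07 (adjusted p = 0.456).

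Cspg4, the NG2 proteoglycan, ran from 18.0 to 22.1 CPM in wild type (median 20.6), from 20.99 to 23.7 in heterozygotes (median 21.7) and from 20.3 to 24.1 in homozygotes (median 21.8). All 6 heterozygous and 7 of 8 homozygous libraries lay above the wild-type median, yet every pair of groups overlapped. Homozygotes differed from wild type by 0.13 on the log2 scale (SE 0.050, 95% interval 0.03 to 0.23, adjusted p = 0.197, edgeR) and heterozygotes by 0.12 (SE 0.054, 95% interval 0.01 to 0.23, adjusted p = 1.00). Exact permutation p was 0.0453 and 0.0519, and 0.281 for both after adjustment. With meningeal and ependymal scores as covariates the difference of homozygotes from wild type was 0.10 (adjusted p = 0.503, edgeR).

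C1ql1, a secreted C1q-family protein of precursors that some neurons also make, had the highest estimate of the members. It ran from 4.45 to 5.51 CPM in wild type (median 5.27), from 5.17 to 6.37 in heterozygotes (median 5.41) and from 4.82 to 8.63 in homozygotes (median 6.02). Of the homozygous libraries, 7 of 8 lay above every wild-type library, and homozygous replicate 6, at 4.82, did not. The difference of homozygotes from wild type was 0.33 on the log2 scale (SE 0.098, 95% interval 0.13 to 0.53), with adjusted p = 0.0878 by edgeR. The exact permutation p was 0.0200, and 0.281 after adjustment. The change per Q331K allele was 0.16 (SE 0.048, adjusted p = 0.0685, edgeR).

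Whether C1ql1 passed depended on the tool and on single libraries. DESeq2 called it against wild type (adjusted p = 0.0343) and over alleles (adjusted p = 0.0255). So did edgeR without homozygous replicate 6, at 0.38 (adjusted p = 0.0445) and at 0.19 per allele (adjusted p = 0.0351). The highest values, 8.63, 7.41 and 6.92 CPM, were in homozygous replicates 5, 8 and 2, the libraries with the highest olfactory bulb scores (2.06, 2.12 and 0.99, against 0.31 or lower in the other 17). Without homozygous replicates 5 and 8 the difference from wild type was 0.20 (adjusted p = 0.265, edgeR), and with the olfactory score as a covariate it was 0.17 (adjusted p = 0.363). The summed level of the 11 olfactory genes was 258 to 296 CPM in wild types, 257 to 288 in heterozygotes and 265 to 417 in homozygotes, and 2 of the genes were at 0 in some libraries. The part of these genes' source tissue in the C1ql1 difference was not tested.

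Neu4, a sialidase that trims sialic acid from cell surface chains, was the member with the lowest estimate. It ran from 6.38 to 8.29 CPM in wild type (median 7.34), from 5.92 to 8.67 in heterozygotes (median 7.91) and from 5.75 to 7.34 in homozygotes (median 6.89). No homozygous library lay above the median of heterozygotes, and the highest, homozygous replicate 5, was level with the wild-type median (both 7.34 CPM). Homozygotes differed from heterozygotes by -0.20 on the log2 scale (SE 0.079, 95% interval -0.36 to -0.04, adjusted p = 0.371, edgeR). The exact permutation p was 0.0453, and 0.281 after adjustment. Against wild type the difference was -0.13 (95% interval -0.29 to 0.04, adjusted p = 0.462, edgeR).

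**Figure D2:**
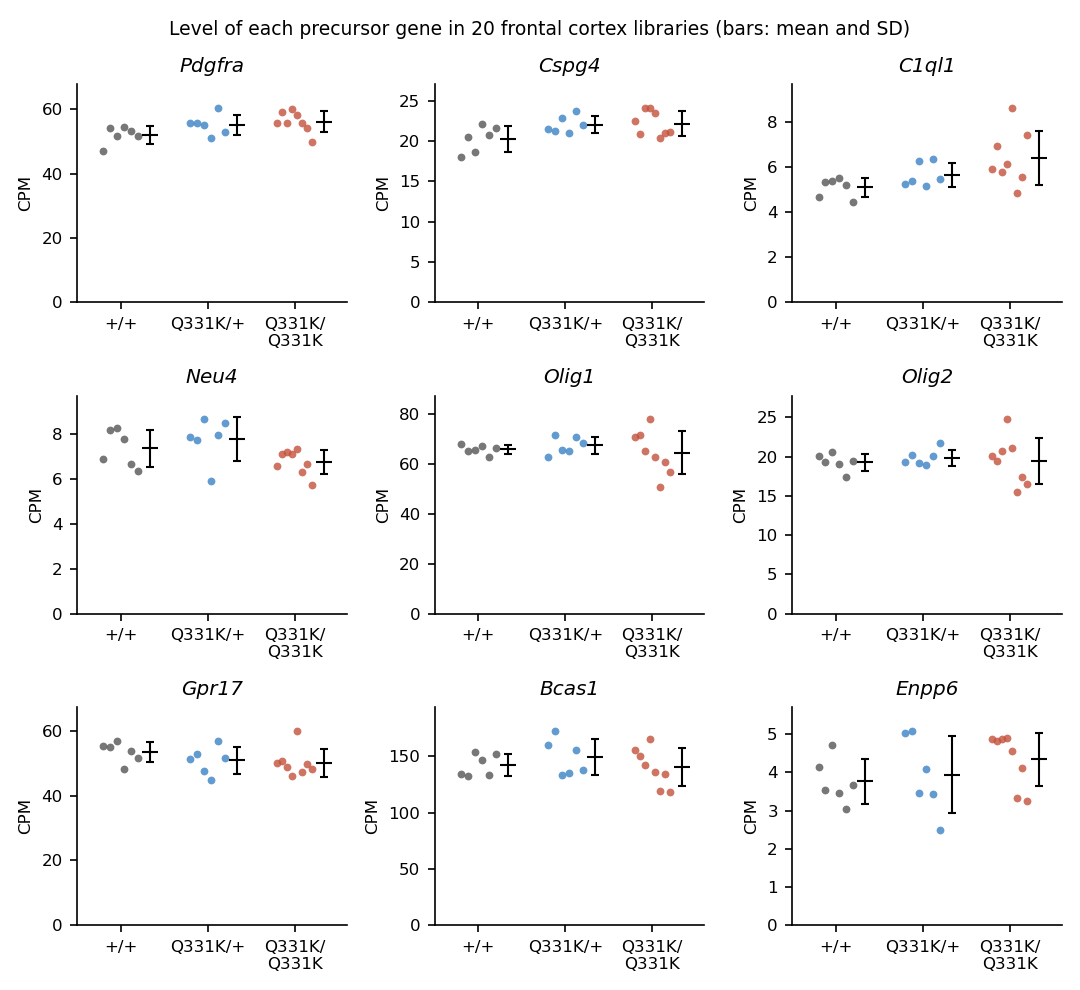
CPM of each of 9 precursor genes by genotype, 1 point per library (6, 6 and 8), with the mean and SD beside the points; each axis starts at 0. C1ql1 reached 8.63 in a homozygous library against at most 5.51 in wild type, while Olig1 and Olig2 spread more widely among homozygotes than among wild types.

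The transcription factors that specify the lineage differed little in their group means. Olig1 ran from 62.9 to 67.9 CPM in wild type (median 66.1), from 63.0 to 71.9 in heterozygotes (median 67.1) and from 50.9 to 78.0 in homozygotes (median 64.0). Olig2 ran from 17.4 to 20.6 CPM in wild type (median 19.4), from 18.9 to 21.7 in heterozygotes (median 19.7) and from 15.6 to 24.8 in homozygotes (median 19.8). The same homozygous library was highest for both, replicate 4, and the same one was lowest, replicate 6. The coefficient of variation among homozygotes was 13.4% for Olig1 and 15.2% for Olig2, against 2.75% and 5.63% in wild type, where counting error alone would give 1.32% and 2.44%. This difference in spread was not tested. Homozygotes differed from wild type by -0.03 for Olig1 (95% interval -0.17 to 0.11, adjusted p = 0.873, edgeR) and by 0.01 for Olig2 (95% interval -0.15 to 0.16, adjusted p = 0.969, edgeR). With meningeal and ependymal scores as covariates these were -0.19 (adjusted p = 0.0972) and -0.10 (adjusted p = 0.623). Without the 4 libraries of ependymal score over 0.5 they were -0.15 (adjusted p = 0.119) and -0.08 (adjusted p = 0.593). Without homozygous replicates 5 and 8 they were 0.0047 (adjusted p = 0.982) and 0.02 (adjusted p = 0.922).

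Gpr17, a receptor that marks precursors leaving the cell cycle and restrains their maturation, ran from 48.1 to 57.0 CPM in wild type (median 54.5), from 44.98 to 56.9 in heterozygotes (median 51.5) and from 46.3 to 60.1 in homozygotes (median 49.3). Of the homozygous libraries, 7 of 8 lay below the wild-type median, and homozygous replicate 5, at 60.1, lay above every wild-type library. The difference from wild type was -0.09 in homozygotes (95% interval -0.20 to 0.02, adjusted p = 0.419) and -0.07 in heterozygotes (95% interval -0.19 to 0.05, adjusted p = 1.00, both edgeR). It was the only member whose estimate was negative in heterozygotes against wild type.

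Bcas1 and Enpp6 are used to mark cells that are about to make myelin. Between libraries of a genotype both varied with a score of genes of myelinating oligodendrocytes (r = 0.848 and 0.879, given below). Which cells of the lineage their RNA came from was not tested. Bcas1, a protein of newly myelinating cells, ran from 133 to 154 CPM in wild type (median 140.3), from 134 to 173 in heterozygotes (median 147) and from 118 to 166 in homozygotes (median 139). Enpp6, a choline-releasing phosphodiesterase of newly forming oligodendrocytes, ran from 3.03 to 4.72 CPM in wild type (median 3.60), from 2.497 to 5.09 in heterozygotes (median 3.78) and from 3.25 to 4.89 in homozygotes (median 4.69). Homozygous replicates 6 and 8 were the lowest of their genotype for both genes, and heterozygous replicate 2 was the highest of its own. Homozygotes differed from wild type by -0.02 for Bcas1 (95% interval -0.18 to 0.14, adjusted p = 0.927, edgeR) and by 0.21 for Enpp6 (95% interval -0.09 to 0.50, adjusted p = 0.508, edgeR). With meningeal and ependymal scores as covariates these were -0.17 for Bcas1 (adjusted p = 0.251) and 0.06 for Enpp6 (adjusted p = 0.896). Without the 4 libraries of ependymal score over 0.5 they were -0.13 (adjusted p = 0.310) and 0.10 (adjusted p = 0.793). Without homozygous replicates 5 and 8 the Bcas1 difference was 0.02 (adjusted p = 0.928). The Enpp6 interval is the widest of the 9. Enpp6 had 189 to 462 counts per library. Counting error alone would give 5.54% in wild type and 5.17% in homozygotes, against coefficients of variation of 15.7% and 16.2%.

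In all, 0 of 9 members passed edgeR's adjusted p of 0.05 in homozygotes against wild type, where 1.56% of all 16690 genes did. The count was also 0 of 9 in heterozygotes against wild type (0.00% of all genes), in homozygotes against heterozygotes (0.108%) and over the number of alleles (1.83%). At an unadjusted p under 0.05, Pdgfra, Cspg4 and C1ql1 were higher in homozygotes than in wild type, 3 of 9 members where 8.05% of all genes were higher. The same 3 were higher over alleles (8.43% of all genes). Cspg4 alone was higher in heterozygotes than in wild type (1.83% of all genes), and Neu4 alone was lower in homozygotes than in heterozygotes (6.29% of all genes). DESeq2 called 1 member, C1ql1, in homozygotes against wild type and over alleles, and 0 when heterozygotes were compared with either other genotype. Limma voom called 0 in each. Of all 16690 genes, DESeq2 called 638 in homozygotes against wild type and 696 over alleles. It called 2 in heterozygotes against wild type and 103 in homozygotes against heterozygotes. Limma voom called 300, 349, 0 and 23 of them in the same order. Of the 27 exact permutation tests, 4 gave an unadjusted p under 0.05 and 0 did after adjustment. No member had groups that did not overlap, which 0.779% of all genes had in homozygotes against wild type, 0.198% in heterozygotes against wild type and 0.288% in homozygotes against heterozygotes.

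The estimate was positive for 5 of 9 members in homozygotes against wild type, with a median of 0.0088 over the members and 0.0013 over all genes, 50.6% of which were positive. In heterozygotes against wild type it was positive for 8 of 9, with a median of 0.07, where 51.2% of all genes were positive. Both comparisons share the wild-type libraries. In simulated counts of this design, 42% of genes changed by 0.2 on the log2 scale and 63.6% of those changed by 0.3 were called in homozygotes against wild type. The changed genes were drawn from all genes. The spread of the members within genotype was larger than that of 69.5% (Cspg4) to 97.4% (Bcas1) of genes of like level, so these shares may be too high for them. Changes of the size estimated here could therefore go uncalled.

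**Figure D3:**
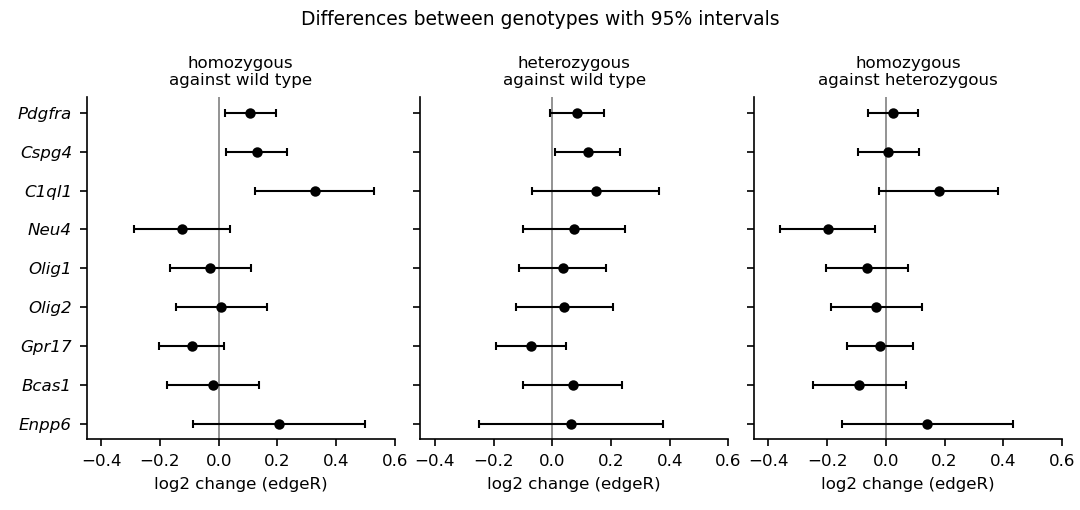
Difference between genotypes (log2, edgeR) of each precursor gene with its 95% interval, for the 3 pairs of genotypes. C1ql1 has the highest estimate, 0.33 in homozygotes against wild type, and Neu4 the lowest, -0.20 in homozygotes against heterozygotes.

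Members were next compared in how they varied between libraries of the same genotype. Deviations of log2 CPM from the genotype mean were correlated over the 20 libraries, with permutations within genotype and adjustment over 81 relations (36 pairs of members, and 45 of a member with a marker score). Of the 36 pairs, 32 had a positive Pearson's r. After adjustment 5 passed by r, and 3 of these also by Spearman's rho. The labels name no batch or date, so no relation could be taken within batches, and the points share libraries.

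Olig1 and Olig2 varied together (r = 0.844, adjusted permutation p = 0.0166; rho = 0.732, adjusted p = 0.0275), with r = 0.635 when homozygous replicates 4 and 6 were left out. Olig1 varied with Bcas1 (r = 0.771, adjusted permutation p = 0.00702; rho = 0.695, adjusted p = 0.0361), with r = 0.665 without the same libraries. Bcas1 varied with Enpp6 (r = 0.715, adjusted permutation p = 0.0168; rho = 0.785, adjusted p = 0.00668), with r = 0.680 without homozygous replicates 4 and 8. Olig2 varied with Bcas1 (r = 0.670, adjusted permutation p = 0.0331) and with Neu4 (r = 0.50, adjusted permutation p = 0.0497), though by rho neither passed (0.582, adjusted p = 0.109, and 0.538, adjusted p = 0.0922). Without homozygous replicates 4 and 6, r was 0.465 for Olig2 with Bcas1 and 0.559 for Olig2 with Neu4. The early pair Pdgfra and Cspg4 had r = 0.584 (adjusted permutation p = 0.0585; rho = 0.525, adjusted p = 0.161) and r = 0.543 without heterozygous replicate 5 and homozygous replicate 8.

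The late-stage genes also varied with the myelin score, a mean over 20 genes of myelinating oligodendrocytes. For Enpp6, r was 0.879 (adjusted permutation p = 0.00081; rho = 0.907, adjusted p = 0.000405) and for Bcas1 it was 0.848 (adjusted permutation p = 0.00081; rho = 0.857, adjusted p = 0.000405). Without the 2 farthest libraries these were 0.884 and 0.803. Olig1 followed at r = 0.715 (adjusted permutation p = 0.0179; rho = 0.674, adjusted p = 0.04), and 0.692 without homozygous replicates 4 and 6. Olig2 had r = 0.616 (adjusted permutation p = 0.0858; rho = 0.531, adjusted p = 0.182), and 0.517 without them. The early genes had lower values that did not pass, 0.288 for Pdgfra and -0.03 for Cspg4 (adjusted permutation p = 0.492 and 0.947), as did Gpr17 at 0.077 and C1ql1 at -0.121 (adjusted permutation p = 0.916 and 0.871). The summed level of the myelin genes was 3635 to 5055 CPM in wild types, 3986 to 5703 in heterozygotes and 3089 to 4928 in homozygotes, and the lowest scores were in homozygous replicates 8 (-1.78) and 6 (-1.31) and wild-type replicate 5 (-1.33).

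**Figure D4:**
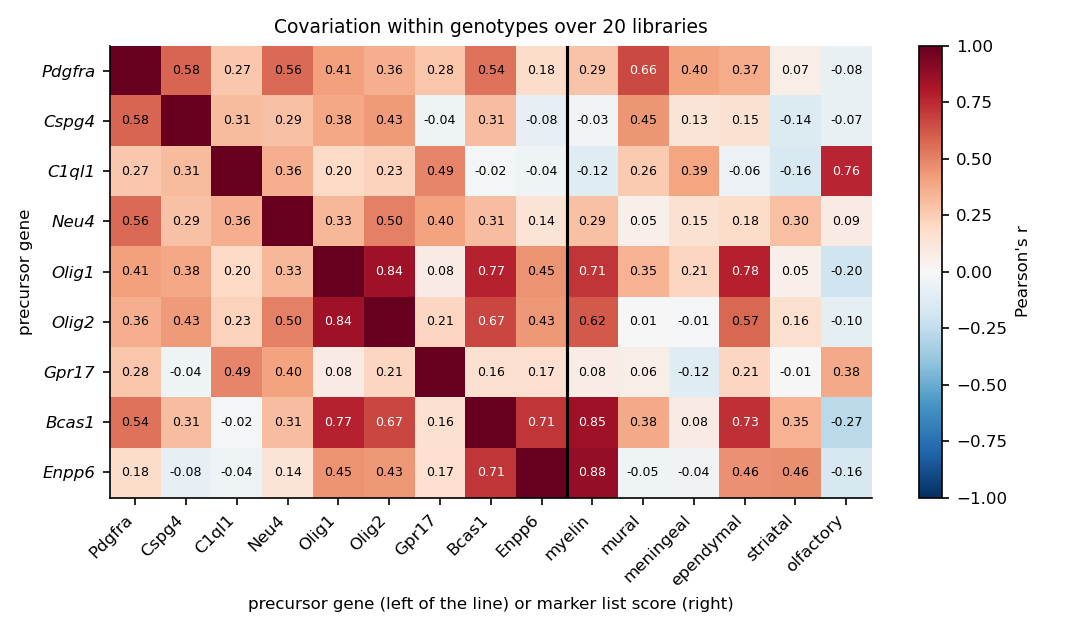
Pearson's r between precursor genes (left of the line) and between each gene and 6 marker scores (right), from deviations from the genotype mean over 20 libraries. Bcas1, Enpp6 and Olig1 are high with the myelin score (0.85, 0.88 and 0.71), and C1ql1 is high with the olfactory score (0.76).

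Other scores passed for single members. Pdgfra varied with the score of mural cells, the contractile cells of vessel walls, at r = 0.664 (adjusted permutation p = 0.0253; rho = 0.683, adjusted p = 0.0259), and at 0.710 without heterozygous replicate 5 and homozygous replicate 8. Cspg4, which was left out of that score because mural cells make it, had r = 0.445 (adjusted permutation p = 0.194; rho = 0.445, adjusted p = 0.242), and 0.277 without homozygous replicate 6 and wild-type replicate 1. The summed level of the other 11 mural genes was 184 to 229 CPM in wild types, 206 to 253 in heterozygotes and 206 to 239 in homozygotes, and none was at 0 in any library. The ependymal score varied with Olig1 (r = 0.777, adjusted permutation p = 0.0233; rho = 0.836, adjusted p = 0.00668) and with Bcas1 (r = 0.732, adjusted permutation p = 0.0179; rho = 0.714, adjusted p = 0.0275). Without the 2 farthest libraries of each gene, these r were 0.837 and 0.640. The summed level of the 12 ependymal genes listed was low, at 9.06 to 10.9 CPM in wild types, 9.42 to 19.0 in heterozygotes and 9.37 to 27.2 in homozygotes. Of the 12, 3 were at 0 in some library, and the score used the 10 that passed the filter on low counts.

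C1ql1 and the olfactory score had r = 0.761 (adjusted permutation p = 0.0174 over 9 relations, 1 per member; rho = 0.735, adjusted p = 0.00981), and 0.708 without homozygous replicates 5 and 6. That score was added after earlier results were known, and the other 8 members did not pass with it. The genes most like C1ql1 over the libraries, among 13887 with a mean of at least 1 CPM, were Mocos (r = 0.871), Nmb (0.815) and Calb2 (0.795), of which Calb2 belongs to the olfactory list. For Bcas1 they were Plekhb1 (0.927), Mbp (0.923) and Cd9 (0.903), and for Enpp6 they were Qdpr (0.942), Prr18 (0.921) and Ttyh2 (0.920). Mbp is a main protein of compact myelin. Those most like Pdgfra were BC051226 (0.858), Cd63 (0.833) and Asrgl1 (0.824), and like Cspg4 Btbd6 (0.777), Apbb1ip (0.775) and Slc46a1 (0.773). The first for Olig1 was Prkcdbp (0.867), for Olig2 Morn2 (0.841), for Gpr17 8430410A17Rik (0.846) and for Neu4 Wdr34 (0.732). These values pick the highest of many and carry no test.

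**Figure D5:**
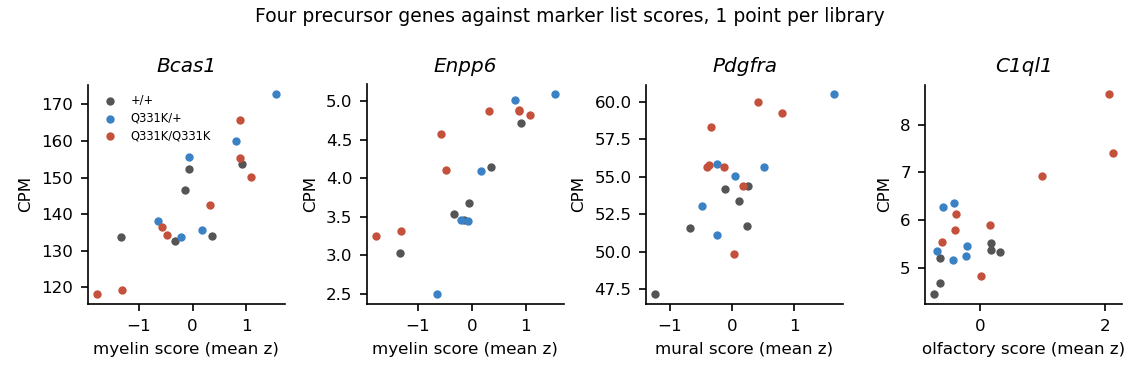
CPM of 4 precursor genes against a marker score (mean z), 1 point per library coloured by genotype; the axes do not start at 0. Bcas1 and Enpp6 rise with the myelin score, Pdgfra with the mural score, and the 3 highest C1ql1 values (8.63, 7.41 and 6.92) lie at the 3 highest olfactory scores.

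Among 20 other genes of precursors, 1 passed in homozygotes against wild type and 17 had a positive estimate, with a median log2 difference of 0.08 against 0.00 over all genes. At an unadjusted p under 0.05, 8 of the 20 were higher and 0 lower, where 8.05% of all genes were higher and 8.06% lower. The gene that passed was Rlbp1, a retinaldehyde-binding protein, which rose by 0.27 on the log2 scale (SE 0.058, adjusted p = 0.0165, edgeR) from 16.5 ± 0.83 CPM (SD, n = 6) to 20.01 ± 1.47 (SD, n = 8), with heterozygotes at 19.1 ± 2.06 (SD, n = 6). The call was lost with meningeal and ependymal scores as covariates, at 0.22 (adjusted p = 0.157), and without homozygous replicates 5 and 8, at 0.27 (adjusted p = 0.0515). In those fits 163 and 119 of all genes were called, against 261 with all libraries and no covariate. DESeq2 called 4 of the 20, and 638 of all 16690 genes. The mean z score of these 20 genes lay between -0.73 and -0.27 in wild type, between -0.30 and 0.46 in heterozygotes and between -0.20 and 0.74 in homozygotes. Homozygotes and wild types thus did not overlap in it, with a gap from -0.27 to -0.20. They overlapped in the score of every other list that was scored. The score of the 20 genes was not tested, nor taken with covariates or with libraries left out. How often a score of 20 other genes would not overlap was not tested either. The list of the 20 genes was chosen with earlier results of these data known. The 9 members had no score of their own. Their summed level overlapped, at 357 to 386 CPM in wild type and 324 to 417 in homozygotes.

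The other lists of the lineage held few calls in homozygotes against wild type, and the 4 lists with 0 calls by edgeR (PDGF, committed, myelin and cell cycle genes) also had 0 by DESeq2 and by limma voom. At an unadjusted p under 0.05 by edgeR, 8.05% of all genes were higher in that comparison and 8.06% lower. Of 6 other PDGF ligand and receptor genes 0 passed, and 1 was higher at an unadjusted p under 0.05, Pdgfrb, a receptor of mural cells, at 0.17 (adjusted p = 0.284, edgeR). Of 20 genes of committed precursors and newly formed oligodendrocytes 0 passed, with a median of 0.04, and 2 were higher and 1 lower at an unadjusted p under 0.05. Those of smallest p were Fam107b at 0.20 (adjusted p = 0.146) and Cd9 at 0.15 (adjusted p = 0.20, both edgeR). Of 20 genes of myelinating cells 0 passed, with a median of 0.00, and 1 was lower at an unadjusted p under 0.05, Hapln2, a link protein of the nodes of Ranvier, at -0.21 (adjusted p = 0.289, edgeR). In heterozygotes against wild type all 20 myelin estimates were positive, with a median of 0.09, where 51.2% of all genes were positive. Of the 20, 0 passed, also at an unadjusted p under 0.05. The myelin score of the 2 groups overlapped, from -1.33 to 0.92 in wild type and from -0.65 to 1.54 in heterozygotes.

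Of 12 regulators of oligodendrocyte differentiation, listed as holding it back, 1 passed. DESeq2 called 2 of the 12 and 638 of all genes, and limma voom 1 of the 12 and 300 of all genes. The gene that edgeR called was Ptn, which rose by 0.16 (SE 0.029, adjusted p = 0.00579, edgeR) from 236 ± 9.53 CPM (SD, n = 6) in wild type to 264 ± 6.85 (SD, n = 8) in homozygotes. Ptn encodes pleiotrophin, a growth factor that binds the phosphatase Ptprz1 of precursors and is known to favour their maturation, so its role is not the one the list is named for. Of 12 cell cycle genes 0 passed, and 3 were higher at an unadjusted p under 0.05, where 8.05% of all genes were higher. Mki67, which marks dividing cells, stood at 1.33 ± 0.492 CPM (SD, n = 6) in wild type and 1.92 ± 0.572 (SD, n = 8) in homozygotes, a difference of 0.53 (adjusted p = 0.207, edgeR), and Mcm2, a replication helicase subunit, differed by 0.18 (adjusted p = 0.221).

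Markers of other cells were read beside the members. In homozygotes against wild type, 8.05% of all genes were higher and 8.06% lower at an unadjusted p under 0.05 by edgeR. The genes of a list were measured in the same libraries, so the counts within a list are not independent. Of 12 meningeal fibroblast markers 0 passed by edgeR in homozygotes against wild type (1 by DESeq2, 0 by limma voom), with 5 higher at an unadjusted p under 0.05. All 12 estimates were positive, the median was 0.34, and their summed level ran from 74.5 to 136 CPM in wild type and from 107 to 169 in homozygotes. Of 10 ependymal markers tested 0 passed by edgeR (2 by DESeq2, 0 by limma voom), with 8 higher at an unadjusted p under 0.05 and a median of 0.68. The summed level of all 12 listed ran from 9.06 to 10.9 CPM in wild type and from 9.37 to 27.2 in homozygotes. The 12 mural markers include the member Cspg4, which is counted here among the positive and the higher genes. Of the 12, 9 had a positive estimate, with a median of 0.11, and 5 were higher and 1 lower at an unadjusted p under 0.05. The gene that passed was the lower one, the potassium channel subunit Abcc9, which fell by 0.26 (adjusted p = 0.028, edgeR). That call was lost without wild-type replicate 1 (adjusted p = 0.0554), wild-type replicate 6 (0.0967) or homozygous replicate 5 (0.0566). In those fits 139, 115 and 147 of all genes were called, against 261 with all libraries. Of 12 neuroblast and progenitor markers 2 passed, Sox4 at 0.35 and Pax6 at 0.31 (adjusted p = 0.00327 and 0.0188, edgeR). Without 1 of wild-type replicates 1, 3 or 5 the Pax6 call was lost (adjusted p = 0.0527, 0.0527 and 0.0626). Leaving out these replicates in turn, 139, 148 and 122 of all genes were called. With meningeal and ependymal scores as covariates none of Sox4 (0.30, adjusted p = 0.0542), Pax6 (0.29, adjusted p = 0.101) and Abcc9 (-0.22, adjusted p = 0.188) passed. Without homozygous replicates 5 and 8, Pax6 (adjusted p = 0.0730) and Abcc9 (adjusted p = 0.0931) did not pass either, and Pax6 did not without the 4 libraries of ependymal score over 0.5 (adjusted p = 0.0637). Of all genes, 163 passed with the covariates, 119 without homozygous replicates 5 and 8, and 253 without the 4 libraries of ependymal score over 0.5. Of 12 cortical neuron markers 1 passed, the interneuron gene Pvalb, which fell by 0.32 (adjusted p = 0.00161, edgeR). Of 12 astrocyte markers 0 passed by edgeR, 4 by DESeq2 and 2 by limma voom, where these called 261, 638 and 300 of all genes. At an unadjusted p under 0.05 by edgeR, 2 of the 12 were higher and 5 lower, and the median was -0.04. Of 12 striatal neuron markers 0 passed by any of these tools, and 0 at an unadjusted p under 0.05, with a median of 0.07. The part of these cells in the values of Pdgfra and Cspg4 was not tested beyond the covariates given above.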

How the data were processed

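Whole-number raw counts per gene, not normalised, were deposited by the authors in 1 table for the 20 libraries. The labels' protocols describe a stranded kit for polyadenylated RNA. Trim Galore 0.4.3, the aligner HISAT2 2.0.5 and the build GRCm38 are named in the submitters' processing notes. How reads were assigned to genes, with which annotation and strand, is unknown here. The members and all gene lists were chosen with earlier results of these data known. Every member was named. Of the other lists, the genes that edgeR called in homozygotes against wild type were named, and for some lists without a call those of smallest p. List genes called in the other comparisons were not named.

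Genotypes came from the labels. All 20 libraries were fitted together with edgeR 4.0.16 (R 4.3.3; TMM scaling, filter on low counts by genotype, robust quasi-likelihood test), with Benjamini-Hochberg adjustment over 16690 genes and calls at an adjusted p under 0.05. Standard errors and 95% intervals came from that fit. Single genes were also tested by exact two-sided permutation on log2 CPM (prior count 2), where the smallest possible p was 0.000333 for 8 libraries against 6 and 0.00108 for 6 against 6. Correlations used 100000 permutations within genotype. Alternatives were DESeq2 1.42.0, its size factors, limma 3.58.1 voom weights, other filters, a replicate block, marker scores as covariates and libraries left out. The script was tested on simulated counts in 5 runs, where 4.34% of calls were false. Coordinates and exon lengths came from GENCODE M21, which held 24990 of the 25909 identifiers, and 56 further rows had no identifier. Depth, 61282647 to 111440766 counts per library, left counting error below the spread between libraries for the members.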

Additional observations from a re-analysis of the deposited data

Results flagged for a closer look

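Of 27 groups of libraries tested (9 genes in 3 genotypes), 2 held a library set apart from the rest of its genotype, and chance alone flags about 1 group in 20. Gpr17 was highest in homozygous replicate 5, at 60.1 CPM, where the nearest of the other homozygous libraries had 50.9. That library also had the highest C1ql1 level, 8.63 CPM, and an olfactory bulb score of 2.06. Neu4 was lowest in heterozygous replicate 4, at 5.92 CPM, where the nearest of the other heterozygous libraries had 7.73. Heterozygous replicate 4 was also the lowest of its genotype for Pdgfra, Cspg4, Olig2, Gpr17 and C1ql1. What set these libraries apart was not tested.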

How the results depend on the processing

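The count of members called in homozygotes against wild type was 0, and it was 1 with DESeq2 (C1ql1). Over alleles it was 0, and 1 with DESeq2 (C1ql1) or with the replicate block (Pdgfra, at 0.07 per allele, adjusted p = 0.0463, edgeR). With 1 library left out it ranged from 0 to 1 in both comparisons (1 without homozygous replicate 6, C1ql1) and from 0 to 0 in the other two. The block rests on numbers alone: over 18 pairs of libraries sharing a number, the correlation of their deviations ran from -0.104 to 0.139 and was over 0.1 in 1 pair, and 2 of 20 libraries correlated best with their own number. Of 459 member values under other settings, 29 changed sign and 3 were called; of 720 with 1 library left out, 27 changed sign and 2 were called.

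The values that changed sign were all small and uncalled. With the replicate block, Olig1 (0.0064) and Bcas1 (0.021) in homozygotes against wild type, both over alleles (0.0032 and 0.010), and Olig2 in homozygotes against heterozygotes (0.022) turned positive. With meningeal and ependymal scores, Pdgfra (-0.026) and Cspg4 (-0.011) in homozygotes against heterozygotes, Olig1 (-0.030), Olig2 (-0.0076) and Enpp6 (-0.0069) in heterozygotes against wild type, and Olig2 in homozygotes against wild type (-0.096) and over alleles (-0.047) turned negative. Without the 4 libraries of ependymal score over 0.5, Pdgfra (-0.0050) and Cspg4 (-0.011) in homozygotes against heterozygotes, Olig2 in homozygotes against wild type (-0.082) and over alleles (-0.039) and Enpp6 in heterozygotes against wild type (-0.027) turned negative. Gpr17 in homozygotes against heterozygotes turned positive (0.014), as it did with limma voom (0.0042). Without homozygous replicates 5 and 8, Olig1 (0.0047 and 0.0024) and Bcas1 (0.023 and 0.011) turned positive in homozygotes against wild type and over alleles. With the olfactory score, so did Bcas1 (0.017 and 0.011), and C1ql1 in homozygotes against heterozygotes turned negative (-0.017). With the myelin score, Olig1 (-0.0021) and Enpp6 (-0.050) turned negative in heterozygotes against wild type, and Enpp6 did so without heterozygous replicate 1 (-0.014). The cause was not tested.

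With 1 library left out, the values that changed sign had these ranges. In homozygotes against wild type, Olig1 was from -0.072 to 0.014, Olig2 from -0.048 to 0.049 and Bcas1 from -0.058 to 0.011. Over alleles, Olig1 was from -0.038 to 0.0062, Olig2 from -0.026 to 0.024 and Bcas1 from -0.032 to 0.0041. In homozygotes against heterozygotes, Cspg4 was from -0.0095 to 0.031, Olig2 from -0.089 to 0.0075 and Gpr17 from -0.061 to 0.015. In heterozygotes against wild type, Enpp6 was from -0.025 to 0.16. The exact tests gave 0 adjusted calls with a prior count of 0.5 as well. When genotype means were kept, 10 in place of 11 relations passed by r, and not all were the same. The ependymal score with Olig1 (adjusted permutation p = 0.0734) and with Bcas1 (0.0754) and Olig2 with Neu4 (0.12) no longer passed. Pdgfra with Cspg4 (adjusted permutation p = 0.0108) and Olig2 with the myelin score (0.0281) newly did. Pdgfra with the mural score passed by r but not by rho (adjusted permutation p = 0.138). Leaving out libraries by ependymal, olfactory or striatal score, the olfactory score as covariate and its 9 relations were chosen after seeing the data.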
